A study of Mus musculus with 75 samples.

Results

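Polysomal and subpolysomal RNA were compared in mouse CD4 effector T cells (Teff, the CD4+CD25- cells of spleen and lymph nodes) that had been stimulated with anti-CD3/CD28 beads and given HHT for the last 10 min of culture. The comparison rests on 6 of the 75 samples in the series, a polysomal (Pol) and a subpolysomal (SubPol) library from each of 3 mice, chosen by their labels and paired by mouse. The series asked how T-regulatory cells (Tregs) affect translation during CD4 T cell activation, and its SPEED arm separated Pol from SubPol RNA on sucrose gradients. The same arm holds Pol and SubPol libraries of 4 mice, mice 1 to 3 among them, from cultures with beads and no HHT (called stimulated here), with beads and Tregs, and without treatment. All of these mice carry the genotype label B6.SJL-PtprcaPepcb/BoyJ, while the design text calls them C57/B6. The mouse numbers mark separate animals. The labels state no age, HHT dose, length of stimulation or rule for pooling gradient fractions into Pol and SubPol. RiboTag cultures from 5 other mice served below as a separate readout. These mice joined the strain B6N.129-Rpl22tm1.1Psam/J with the Cre line B6.Cg-Tg(Cd4-cre)1Cwi/BfluJ. In them the Cre driven by Cd4 switches on a tagged ribosomal protein, and tagged ribosomes are pulled down with their mRNA.

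An mRNA that carries several ribosomes at once sediments as a polysome, while free mRNA and mRNA with few ribosomes stay in lighter fractions. HHT is the usual abbreviation of homoharringtonine, although the labels give only the letters. That compound acts on ribosomes that have just finished initiation and stops them from starting to elongate. Ribosomes already under way continue to the stop codon and leave, so polysomes empty over time, and a long reading frame takes longer to clear than a short one. In T cells, activation through the T cell receptor and CD28 is known to raise protein synthesis and to shift many mRNAs onto polysomes. A fraction preference in the sense used below is the log2 ratio of a gene's CPM (its counts scaled to library size) in the Pol library to that in the SubPol library of the same culture.

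The 3 HHT Pol libraries held 1909477 to 4195677 counts and the 3 HHT SubPol libraries 2714404 to 3862656, within the 1566501 to 4481817 counts of all 30 Pol and SubPol libraries. In mice 1 and 2 the HHT Pol library was shallower than its SubPol partner, at 2007852 against 2714404 counts and 1909477 against 3292926. The HHT pair of mouse 3 was the deepest and the most even of the 3, at 4195677 and 3862656 counts. The files name genes only by Ensembl mouse identifiers, and none could be paired with a symbol here. Gene groups were therefore defined by measured behaviour rather than by pathway, and the Teff label was not checked against marker genes. The planned comparison with coding length was not run for the same reason. Scaling was done within each library, so a ratio compares shares of the RNA in a fraction and not amounts, and fewer cells of a type cannot be told apart from less RNA per cell.

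A fraction preference was still measurable after HHT, but for a small share of the genes. Of 11731 genes tested, 737 were higher in Pol (6.28%) and 567 were higher in SubPol (4.83%), together 1304 genes or 11.1%, by edgeR's quasi-likelihood test with the culture as a block and Benjamini-Hochberg adjusted p below 0.05. The Pol side held the large differences: 156 genes were at least 2-fold higher in Pol and 35 at least 2-fold higher in SubPol. Mean log2 CPM over the 6 libraries reached 5, with 1 sign in all 3 cultures, for 1165 called genes, and of these 94 were at least 2-fold higher in Pol and 3 at least 2-fold higher in SubPol. The split between the sides depended on scaling: with library totals only, 541 genes were higher and 1000 lower in Pol. Without the culture block the test called 689 genes, of which 672 were among the 1304 and in the same direction.

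The identifiers with the largest preference for Pol show how far single mRNAs were separated. ENSMUSG00000022672 measured 106, 126 and 136 CPM in the HHT Pol libraries of mice 1, 2 and 3, against 19.7, 47.6 and 3.03 CPM in their SubPol libraries. The fractions did not overlap, and the SubPol library of mouse 3, with 12 counts, was by far the lowest. Its fitted log2 ratio was 2.81 ± 0.52 (SE of the fit, n = 3 cultures, adjusted p = 0.00319), and it was 1.89 without mouse 3. By culture the log2 ratio was 2.39, 1.40 and 5.20 in mice 1, 2 and 3. The SE of a log2 ratio, here and below, comes from the fit to all 30 libraries. It is not the spread of the 3 cultures. In stimulated cultures the same identifier had 39.8, 25.3, 32.7 and 21.2 CPM in Pol and 23.7, 41.3, 35.6 and 28.3 CPM in SubPol (mice 1 to 4), so the fractions overlapped there, and the log2 ratio of -0.11 ± 0.43 did not pass the test (adjusted p = 0.858). The Pol level under HHT was above every stimulated Pol library.

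ENSMUSG00000024073 was next, at 101, 138 and 149 CPM in HHT Pol and 13.6, 37.8 and 18.4 CPM in HHT SubPol. Its Pol libraries were again all above its SubPol libraries, and the log2 ratio was 2.56 ± 0.25 (SE, n = 3, adjusted p = 2.32e-05). Stimulated cultures gave 61.4, 46.4, 40.7 and 26.9 CPM in Pol and 37.9, 35.8, 22.5 and 38.7 CPM in SubPol, a log2 ratio of 0.41 ± 0.22 that did not pass (adjusted p = 0.136). In untreated cultures, where its Pol level was 123 ± 21.9 CPM (SD, n = 4), the log2 ratio was 0.78 (adjusted p = 0.00391). The Pol levels of this mRNA under HHT were close to the untreated ones (101 to 153 CPM), and the SubPol level of 13.6 to 37.8 CPM was below all 4 untreated SubPol libraries (49.8 to 96.0 CPM).

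In unfractionated Input RNA neither identifier moved as its Pol share did. ENSMUSG00000022672 had 90.0 and 62.8 CPM in the 2 HHT Input libraries that carry the mouse 1 title and 56.1 CPM in that of mouse 3, against 35.7 to 72.3 CPM in 4 stimulated Input libraries. ENSMUSG00000024073 had 120, 93.3 and 62.6 CPM in the HHT Inputs, against 60.1 to 106 CPM in the stimulated ones. With 2 of 3 Input libraries sharing a title, no test was made on them.

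On the SubPol side the differences were smaller. ENSMUSG00000031165 measured 22.1, 24.3 and 21.2 CPM in HHT Pol and 34.8, 54.0 and 56.7 CPM in HHT SubPol, without overlap. The log2 ratio was -1.10 ± 0.23 (SE, n = 3, adjusted p = 0.00653). This call was lost without mouse 3, at a log2 ratio of -0.91 (adjusted p = 0.109). In stimulated cultures it was 51.5, 33.3, 56.4 and 40.3 CPM in Pol and 27.1, 31.4, 58.4 and 32.7 CPM in SubPol, where the fractions overlapped (log2 ratio 0.31 ± 0.19, adjusted p = 0.201). Its Input level was higher under HHT, at 42.0, 38.9 and 56.9 CPM, than in every stimulated Input library (14.5 to 33.9 CPM).

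ENSMUSG00000058503 had 29.6, 27.1 and 30.7 CPM in HHT Pol and 53.3, 53.0 and 75.4 CPM in HHT SubPol, a log2 ratio of -1.05 ± 0.18 (SE, n = 3, adjusted p = 0.00167). Its stimulated ratio was near 0, at -0.02 ± 0.15 (adjusted p = 0.929), with 32.7 to 50.4 CPM in Pol and 37.0 to 47.2 CPM in SubPol. Its Input level was 48.6, 50.4 and 32.6 CPM under HHT and 31.5 to 35.3 CPM in stimulated cultures. In untreated cultures it was lower in Pol, as under HHT (log2 ratio -0.68, adjusted p = 0.00112), whereas ENSMUSG00000031165 was higher in Pol there (0.52, adjusted p = 0.0240) and ENSMUSG00000022672 did not pass (0.51, adjusted p = 0.339). All 4 identifiers were chosen for the size of their HHT ratio, so that size is a description. The test of the difference from stimulated cultures uses the same HHT ratio and is not independent of that choice. It gave adjusted p from 0.000145 (ENSMUSG00000024073) to 0.00344 (ENSMUSG00000022672).

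**Figure D1:**
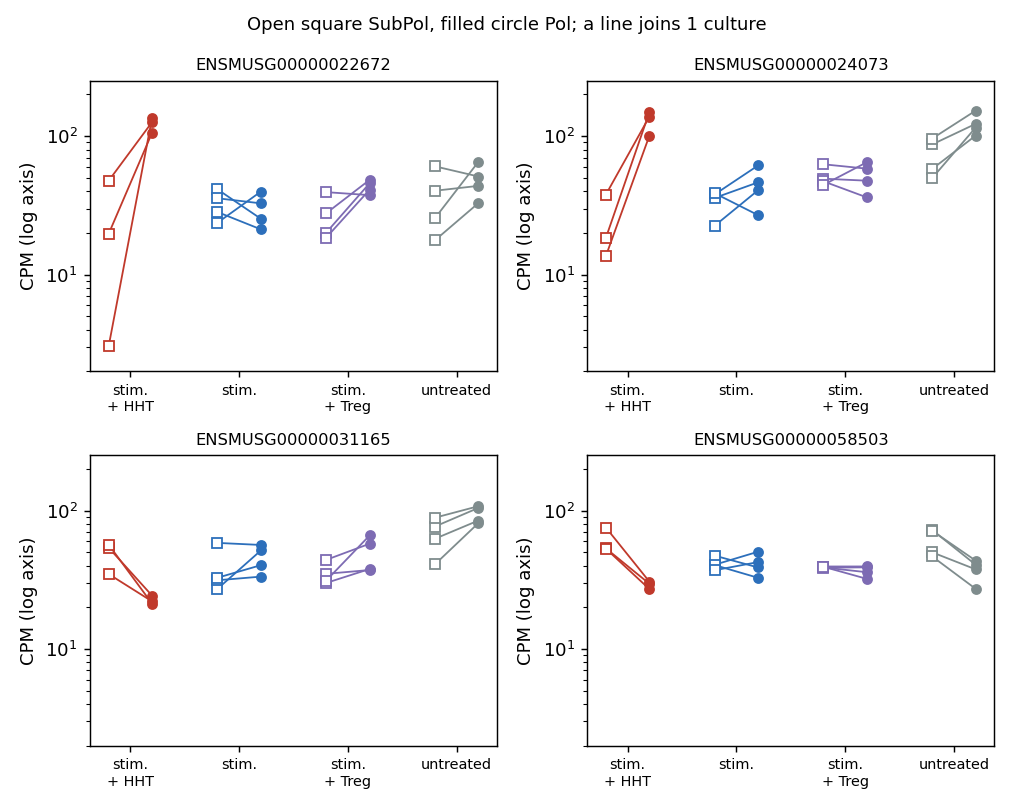
CPM on a log axis for the 4 identifiers in every Pol (filled circle) and SubPol (open square) library, with a line joining the fractions of 1 culture. The 3 HHT cultures all rise toward Pol in the upper panels and all fall toward Pol in the lower panels, while the 4 stimulated cultures lie close to level or run both ways.

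The preference under HHT was shared between mice. All 3 cultures had the same sign for 1298 of the 1304 called genes (99.5%), against 48.1% of all genes tested. That share is high partly because agreement helps a gene to be called. Genes called from only 2 cultures were therefore read in the third, which had no part in the call. Of 489 genes called without mouse 1, 97.3% had the called direction in mouse 1. The figure was 92.4% of 816 genes in mouse 2 and 98.1% of 263 genes in mouse 3, while 48.2% to 49.6% of all genes lay above 0 in these cultures. The counts themselves depended on single cultures: mouse 3 contributed the most, and leaving it out lowered the calls from 1304 to 263, with 214 higher and 49 lower in Pol.

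Across genes the HHT pattern was narrower than the stimulated one and correlated less between cultures. Over the 7256 genes whose mean log2 CPM reached 5 across all 30 libraries, called well measured here, the SD of the log2 ratio was 0.41, 0.39 and 0.54 in the HHT cultures of mice 1, 2 and 3. It was 0.71 to 0.78 in the 4 stimulated cultures and 0.67 to 0.90 in the 4 untreated cultures, so the HHT cultures did not overlap with either. The correlation between HHT cultures across genes was 0.48 to 0.60 (3 pairs), against 0.80 to 0.88 between stimulated cultures (6 pairs). HHT cultures correlated with stimulated cultures at 0.27 to 0.35 (12 pairs) and with untreated cultures at 0.22 to 0.44 (12 pairs). A smaller spread by itself lowers a correlation where the noise is equal, and its part in these values was not tested. Libraries of the same mice enter these pairs, and genes are not independent replicates, so the values are descriptions.

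**Figure D2:**
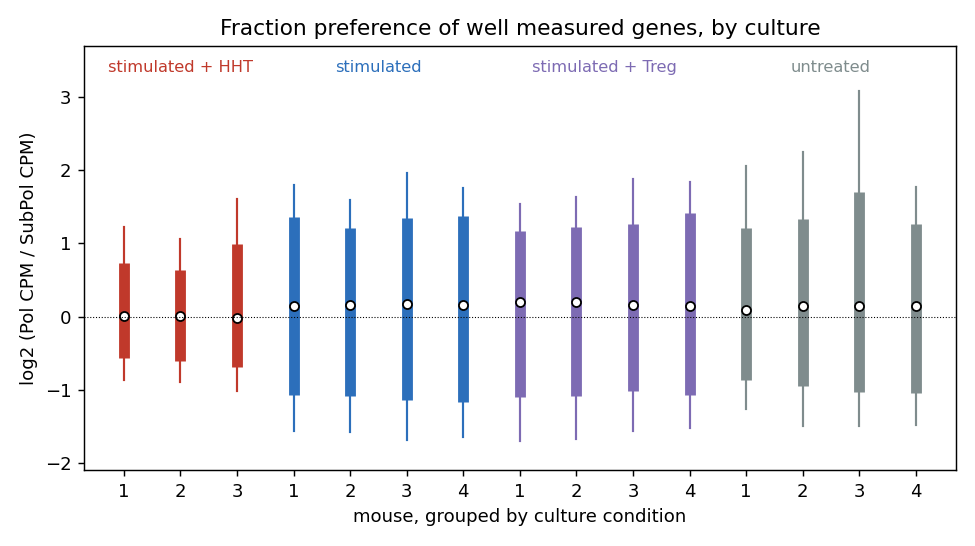
Log2 ratio of Pol to SubPol CPM over 7256 well measured genes in each of 15 cultures, with mice on the horizontal axis. Thick bars run from the 5th to the 95th percentile, thin lines from the 1st to the 99th, and white points are medians. The HHT bars are shorter than all others. In every culture the upper end of the bar lies farther from 0 than the lower end.

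The shape of the distribution also differed. The 1st and 99th percentiles of the log2 ratio under HHT were -0.86 and 1.22 in mouse 1 and -0.90 and 1.07 in mouse 2. In mouse 3 they were -1.02 and 1.60. In the stimulated cultures of mice 1 to 4 they were -1.57 and 1.80, -1.58 and 1.59, -1.69 and 1.96, and -1.65 and 1.75. The 99th percentile thus lay farther from 0 than the 1st in both conditions. Medians were -0.02 to 0.01 under HHT and 0.14 to 0.17 in stimulated cultures. Skewness, which is above 0 when the tail toward Pol is the longer one, was 0.49, 0.33 and 0.91 in the HHT cultures of mice 1, 2 and 3. In stimulated cultures it was -0.02, -0.21, -0.02 and -0.14. The means, 0.58 ± 0.30 (SD, n = 3) and -0.09 ± 0.09 (SD, n = 4), differed with p = 0.0286 (exact two-sided permutation test of 35 arrangements, the smallest p these group sizes allow). With 2 such tests made over cultures, this one and that of the slope below, the adjusted p was also 0.0286. This test treats the 7 cultures as independent, although mice 1 to 3 supplied both kinds. Paired by mouse, the difference was 0.51 to 0.92 and above 0 in 3 of 3 mice, with p = 0.250 (exact two-sided sign-flip test), the smallest that 3 mice allow. Untreated cultures ranged from 0.03 to 1.05, which overlaps the HHT cultures.

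HHT changed the fraction preference of many genes relative to the stimulated cultures. Without HHT, 3202 genes (27.3%) were higher in Pol and 2767 (23.6%) higher in SubPol by the same fit, 1032 and 1119 of them at least 2-fold. The test of the difference between HHT and stimulated ratios called 3495 genes (29.8%), 1470 with a ratio that moved toward Pol and 2025 with a ratio that moved toward SubPol. This count was 2261 without mouse 1. The HHT and stimulated ratios come from different libraries, although of the same mice, so their calls can be set side by side. Of the genes with a Pol preference in stimulated cultures, 466 (14.6%) had one under HHT, 2645 (82.6%) had no call and 91 (2.84%) had a SubPol preference. Of the genes with a SubPol preference in stimulated cultures, 322 (11.6%) had one under HHT, 2399 (86.7%) had no call and 46 (1.66%) had a Pol preference. The background shares under HHT were the 6.28% and 4.83% given above. The test of the difference passed for 1613 of the 2645 genes and for 1098 of the 2399, so a missing HHT call does not by itself show a lost preference. Median log2 CPM was 6.87 for genes with a stimulated Pol preference and 5.95 for those with a SubPol preference, against 5.71 for all genes. The part of level in these shares was not tested.

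**Figure D3:**
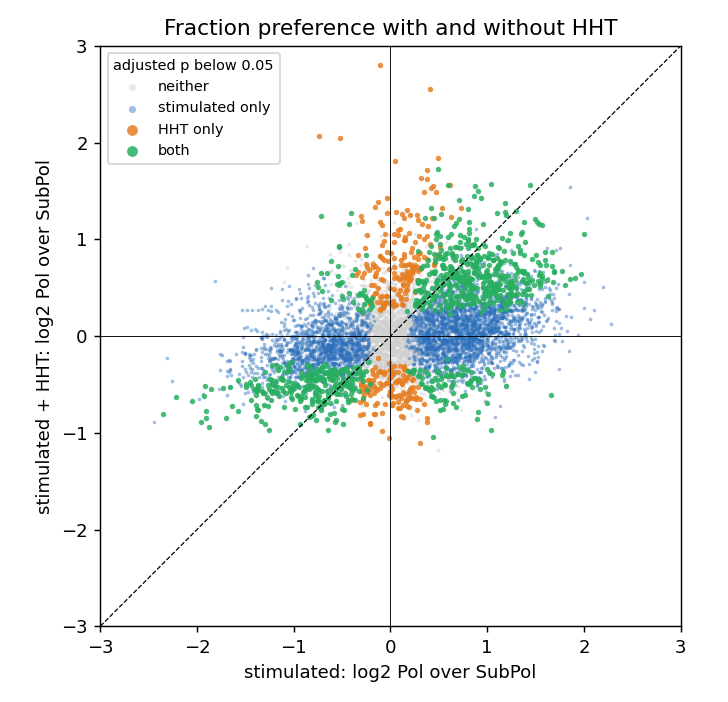
Fitted log2 ratio of Pol to SubPol in HHT cultures (vertical axis) against stimulated cultures (horizontal axis), with a point for each gene whose mean log2 CPM over the 6 HHT libraries reached 5. Colours mark where the ratio passed the test and the dashed line marks equal ratios. Most points spread along the horizontal axis and stay close to 0 on the vertical axis, and the orange points with a call only under HHT reach to 2.81.

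How much of the usual preference was left was measured on genes chosen by their ratio in other libraries, the cocultures with Tregs. Neither the HHT nor the stimulated ratios entered the choice. It was not fully independent of them, since all 30 libraries shared the filter, the scaling and the fit, and the mice were the same. In the cocultures 932 genes (7.94%) were at least 2-fold higher in Pol and 1072 (9.14%) at least 2-fold higher in SubPol. The Pol-preferring genes had a median log2 ratio of 1.21, 1.11, 1.08 and 1.28 in the stimulated cultures of mice 1 to 4. In the HHT cultures of mice 1, 2 and 3 the median was 0.22, 0.21 and 0.30. The SubPol-preferring genes had medians of -1.24, -1.25, -1.31 and -1.29 in stimulated cultures and of -0.30, -0.34 and -0.42 under HHT. Both sets kept their direction in all 3 HHT cultures at a much smaller size, and the groups of cultures did not overlap. Medians over all genes tested were between -0.01 and 0.00 in the HHT cultures.

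By gene, 161 of the 932 Pol-preferring genes (17.3%) were still called higher in Pol under HHT and 6 (0.644%) were called lower, against 6.28% and 4.83% of all genes. In stimulated cultures 800 of them (85.8%) were higher and 0 lower, against 27.3% and 23.6% of all genes. Of the 1072 SubPol-preferring genes, 114 (10.6%) were called lower in Pol under HHT and 2 (0.187%) higher, while 845 (78.8%) were lower in stimulated cultures. On the log2 CPM scale the median level was 6.45 for the Pol-preferring and 4.13 for the SubPol-preferring genes, against 5.71 for all genes. The share of genes called under HHT was higher at higher levels, and the part of level in these shares was not tested. The difference between HHT and stimulated cultures passed the test downward for 583 of the 932 genes and upward for 1, and upward for 418 of the 1072 and downward for 0. Among all 11731 genes it passed downward for 2025 and upward for 1470. The HHT ratios of the well measured members were mostly bounded below 2-fold. Of these 1108 genes, 900 (81.2%) had a 95% interval under HHT that lay wholly inside a 2-fold difference in either direction, against 17 (1.53%) in stimulated cultures. Over all 7256 well measured genes the shares were 86.9% and 61.5%, so under HHT the members lay near the share of all genes. A smaller preference than that can be present without a call.

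**Figure D4:**
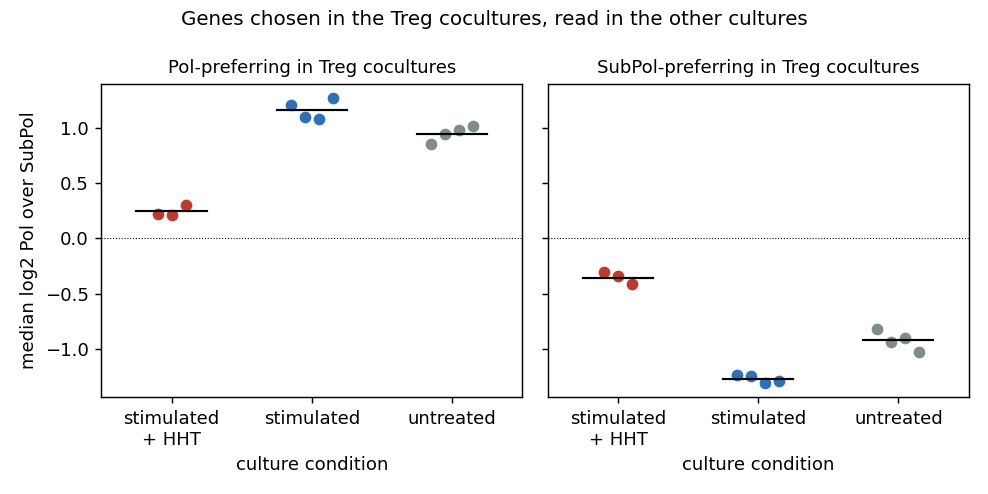
Median log2 ratio of Pol to SubPol over the 932 Pol-preferring genes of the Treg cocultures (left) and the 1072 SubPol-preferring genes (right), with a point for each culture and a line at the group mean. HHT points lie at 0.21 to 0.30 and at -0.30 to -0.42, between 0 and the points of the stimulated and untreated cultures.

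Over the sets, the median fitted ratio under HHT was 22.4% of the stimulated one for Pol-preferring genes and 27.3% for SubPol-preferring genes. A slope over all 7256 well measured genes gave a like value. When each culture's log2 ratios were regressed on the mean ratio of the 4 Treg cocultures, the slope was 0.20, 0.19 and 0.26 in the HHT cultures of mice 1, 2 and 3. It was 1.01, 0.95, 0.97 and 1.04 in the stimulated cultures of mice 1 to 4. The mean HHT slope of 0.22 ± 0.04 (SD, n = 3) was 21.9% of the stimulated mean of 0.99 ± 0.04 (SD, n = 4), and the groups did not overlap (p = 0.0286, exact two-sided permutation test, the smallest possible). Paired by mouse, the slope was lower under HHT in 3 of 3 mice, with differences of -0.81 to -0.70, again with the smallest paired p of 0.250 (exact). With the mean of the untreated cultures as the reference, the HHT slope was 0.26, or 29.5% of the stimulated one. Without mouse 3 it was 0.19, or 19.4%, at a smallest possible p of 0.100.

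Across all well measured genes, the SubPol libraries changed more with HHT than the Pol libraries did. Within a mouse, the root mean square log2 difference between HHT and stimulated SubPol libraries over the well measured genes was 0.61, 0.59 and 0.67 (mice 1, 2 and 3). For Pol libraries it was 0.39, 0.39 and 0.45. Between stimulated libraries of 2 different mice it was 0.29 to 0.43 in SubPol and 0.27 to 0.41 in Pol (6 pairs each). Thus every HHT change in SubPol was larger than the distance between any 2 mice, while the HHT change in Pol was within or just above it. Fitted on the fractions separately with the mouse as a block, HHT against stimulated called 3789 genes (32.3%) in SubPol and 679 (5.79%) in Pol.

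Genes with a preference in the Treg cocultures followed that order, and by their medians the genes with a call only under HHT did not. Genes that preferred Pol in the cocultures had a median log2 change of 0.85, 0.91 and 0.80 in the SubPol libraries of mice 1, 2 and 3, and of -0.12, -0.04 and -0.01 in their Pol libraries. By gene, 667 of the 932 (71.6%) were called higher in SubPol and 2 (0.215%) lower, against 19.1% and 13.2% of all genes. In Pol 38 (4.08%) were called higher and 33 (3.54%) lower, against 3.48% and 2.31% of all genes. Genes that preferred SubPol had a median change of -0.55, -0.62 and -0.60 in the SubPol libraries and of 0.38, 0.31 and 0.25 in the Pol libraries. Of these 1072 genes, 394 (36.8%) were called lower in SubPol and 1 higher, and 71 (6.62%) were called higher in Pol and 0 lower. The Pol-preferring and SubPol-preferring sets differed in level, as given above, and the part of level in these shares was not tested. For the 225 genes with a Pol preference called under HHT and not in stimulated cultures, the median change was larger in Pol than in SubPol, at 0.44 and -0.29. Their calls were even, with 56 (24.9%) higher in Pol and 57 (25.3%) lower in SubPol, against 3.48% and 13.2% of all genes. For the 154 genes with a SubPol preference called in the same way the median change was -0.40 in Pol and 0.15 in SubPol. Of these, 40 (26.0%) were called lower in Pol and 28 (18.2%) higher in SubPol, against 2.31% and 19.1% of all genes. The HHT libraries took part in choosing these last groups, so their values are descriptions. Among the printed identifiers, ENSMUSG00000022672, ENSMUSG00000024073 and ENSMUSG00000031165 changed by 1.98, 1.52 and -1.07 in Pol and by -0.56, -0.57 and 0.35 in SubPol, and ENSMUSG00000058503 by -0.55 and 0.48. These are changes of share within each fraction, not of amount.

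**Figure D5:**
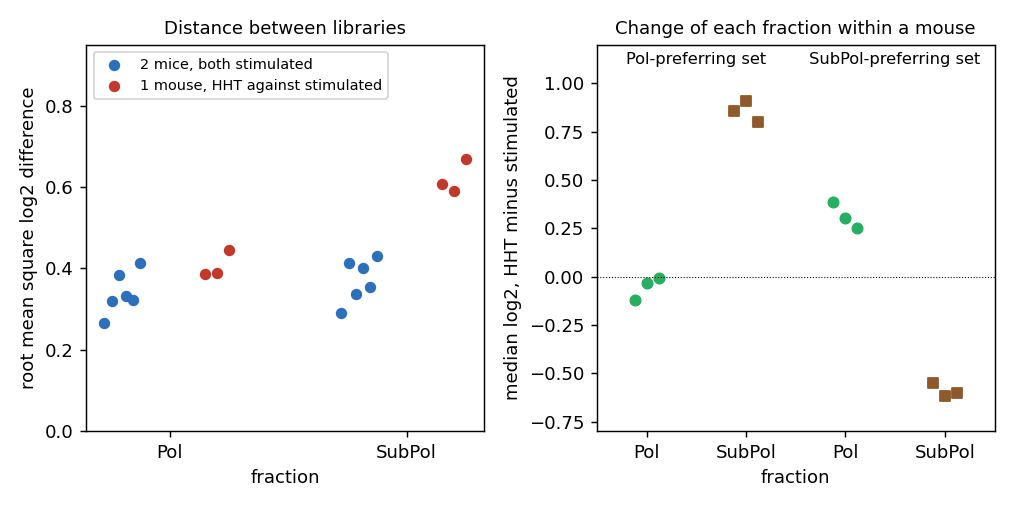
Left, root mean square log2 difference over 7256 well measured genes between HHT and stimulated libraries of 1 mouse (red, 3 mice) and between stimulated libraries of 2 mice (blue, 6 pairs), for each fraction. Right, median log2 change from stimulated to HHT of the Pol and SubPol libraries in mice 1 to 3, for the genes that preferred Pol or SubPol in Treg cocultures. SubPol changes are the larger in every mouse, upward to 0.91 for one set and downward to -0.62 for the other.

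Smaller groups of genes were called under HHT with no call, or with the opposite call, in stimulated cultures. A Pol preference was called in 225 genes without any call in stimulated cultures, with a median log2 ratio of 0.84 under HHT and 0.13 without it. A SubPol preference was called likewise in 154 genes, at -0.57 and 0.00. The test of the difference between HHT and stimulated ratios passed for 121 of the 225 and for 89 of the 154, against 29.8% of all genes. Choosing genes by an HHT call without a stimulated call itself favours passing this test. Many did not pass, so a missing stimulated call does not by itself show a different ratio. The called directions were opposite in 91 genes with Pol in stimulated cultures and SubPol under HHT, and in 46 genes the other way round. Opposite calls nearly fix the outcome of the test of the difference, so it adds nothing for these genes. Among the well measured of them, 88 genes had a median log2 ratio of 0.59 in stimulated cultures and -0.48 under HHT, and 42 genes had -0.41 and 0.47. ENSMUSG00000022672 and ENSMUSG00000024073, at the head of the Pol list, belong to the 225 genes called under HHT and not in stimulated cultures, although ENSMUSG00000024073 was also called in untreated cultures. These groups were drawn by their HHT and stimulated calls, so their medians on those scales are descriptions.

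The RiboTag cultures give a readout that the grouping did not use. In them, 10649 of the 11731 genes were measured, and the median log2 ratio of ribosome pull-down to Input RNA after stimulation was 0.02 over all of them. It was 0.09 for the 466 genes with a Pol preference in both HHT and stimulated cultures, and 0.14 for 2624 measured genes that had it only in stimulated cultures. For 224 measured genes with a Pol preference only under HHT it was -0.09. On the SubPol side it was 0.07 for 151 measured genes with that preference only under HHT and -0.05 for 321 with it in both conditions. The 91 genes with SubPol under HHT and Pol in stimulated cultures had 0.16, and the 46 with the reverse had -0.03. Across 7255 well measured genes, the pull-down ratio correlated with the Pol over SubPol ratio at r = 0.29 to 0.41 in the 4 stimulated cultures. In the HHT cultures of mice 1, 2 and 3 the correlation was -0.01, 0.05 and -0.06, and in the 4 untreated cultures it was 0.17 to 0.23. HHT ratios also had the smaller spread and the lower correlation between cultures given above. The part of these in the values was not tested. All of these values are descriptions across genes, and all cultures share the same 5-mouse mean of the pull-down ratio.

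The RiboTag Input libraries also record each gene's response to activation. Stimulated over resting Input (resting cultures held IL7) raised 1710 of 10751 genes at least 2-fold (15.9%) and lowered 1490 (13.9%), without the block by mouse. Of those also tested here, the 1454 lowered genes contained 154 with a Pol preference under HHT (10.6%) and 44 with a SubPol preference (3.03%). The 1680 raised genes contained 58 (3.45%) and 41 (2.44%). Over all 10649 genes measured in both assays the shares were 6.91% and 5.29%. In stimulated cultures a Pol preference was called in 243 lowered genes (16.7%) and 503 raised genes (29.9%), and in 29.9% of all 10649 genes. Lowered genes thus lay above the share of all genes under HHT and below it in stimulated cultures, while raised genes were at that share in stimulated cultures.

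The 154 lowered genes with a Pol preference under HHT were spread unevenly over the groups by stimulated call. Among the 224 measured genes with a Pol preference only under HHT, 84 (37.5%) were lowered at least 2-fold on activation and 12 (5.36%) were raised. Over all measured genes these shares were 13.7% and 15.8%, and in the 466 genes with a Pol preference in both conditions they were 12.7% and 9.66%. The 151 measured genes with a SubPol preference only under HHT had 6 lowered (3.97%) and 13 raised (8.61%). The median ratio of all 1454 lowered genes was 0.07, 0.00 and 0.20 in the HHT cultures of mice 1, 2 and 3 and -0.05, -0.18, -0.07 and -0.14 in the 4 stimulated cultures. In the 4 untreated cultures it was 0.07, 0.06, 0.10 and 0.14, which lies within the HHT range, and all of these values are small beside the SD across genes. Lowered and raised genes had median levels of 5.17 and 5.28 on the log2 CPM scale, below the 5.96 of all 10649 genes, and the share of genes called under HHT was higher at higher levels. The part of level in these shares was not tested. ENSMUSG00000024073 was itself lowered on activation (log2 change -1.02, adjusted p = 4.53e-05), as was ENSMUSG00000022672 (-0.89, adjusted p = 0.0076), although the latter by less than 2-fold.

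Detection under HHT followed the expression level. Of 4571 genes with a mean log2 CPM between 5 and 7, 14.5% were called, and of 2593 genes between 7 and 9, 20.1%. Among the 92 genes above 9, the most abundant mRNAs, 23 (25%) were higher in Pol and 0 in SubPol under HHT. The shares of all genes were 6.28% and 4.83%. Stimulated cultures had 55 higher and 15 lower among these 92, against 27.3% and 23.6% of all genes. Over all genes the split between the sides depended on scaling, and this was not tested for the 92. Of 2153 genes at or below 3, only 0.604% were called under HHT, with a median SE of 0.97 on the log2 scale against 0.11 between 7 and 9, so a moderate preference was not detectable there. Of all 7256 well measured genes, 6309 (86.9%) had a 95% interval that lay inside a 2-fold difference under HHT, against 4463 (61.5%) in stimulated cultures.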

How the data were processed

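RNA was made into SMART-Seq v4 and NexteraXT libraries, per the labels' protocols. The deposited tables hold whole-number read counts per Ensembl gene (53465 genes), made by the authors on GRCm38. HTSeq 0.4.1, Picard 1.134, FastQC 0.11.3 and SAMtools 1.2 are listed per the submitters' processing notes. The aligner is not given in the sources used here, and overlapping genes on opposite strands may share reads.

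Genes passing filterByExpr (11731) were fitted in edgeR 4.0.16 (R 4.3.3) with TMM scaling, on 30 Pol and SubPol libraries with 15 cultures as blocks and 1 Pol term per condition (11 residual degrees of freedom). Log2 CPM used a prior count of 2. Fractions share a mouse by label, and their deviations from group means correlated at 0.10 to 0.30 in the HHT pairs. Counts of HHT replicates differed beyond sampling noise (chi-square per degree of freedom of 1.79 or more). The script was tested on simulated data. RiboTag counts were fitted by group, and 16 RiboTag columns matched no sample and were not used. Identifiers printed are the 2 largest ratios each way among genes with adjusted p below 0.05, mean log2 CPM of at least 5 and 1 sign in all HHT cultures. Groups, lists and rules were chosen with earlier results of these data known. The slope, skewness, single-fraction and RiboTag comparisons were added after seeing the data. Alternatives changed block, scaling, filter, tool (DESeq2 1.42.0) and replicates.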

Additional observations from a re-analysis of the deposited data

Results flagged for a closer look

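The Pol over SubPol ratio differed between HHT and stimulated cultures in 3495 genes by the test of the difference (edgeR quasi-likelihood, Benjamini-Hochberg). The 4 printed identifiers were among them, with log2 differences (HHT minus stimulated) of 2.91 for ENSMUSG00000022672, 2.15 for ENSMUSG00000024073, -1.41 for ENSMUSG00000031165 and -1.03 for ENSMUSG00000058503; these were chosen for their HHT ratio, which enters the difference. For ENSMUSG00000024073, the stimulated SubPol library of mouse 3 lay apart from the other 3 at 22.5 CPM, against 35.8 to 38.7 CPM. About 1 in 20 groups would be marked in this way by chance.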

How the results depend on the processing

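Without the replicate block the HHT comparison called 689 genes in place of 1304. Leaving out each replicate in turn gave 263 to 816 genes for HHT, 2261 to 2976 for the difference between HHT and stimulated cultures, and 5196 to 5279 for stimulated cultures. The other count alternatives (DESeq2, RLE size factors, library totals, no filter, the mouse as a block, the HHT libraries alone) stayed within 1.5 times the values given. Library totals in place of TMM moved the median stimulated log2 ratio from 0.02 to -0.17 and the stimulated split to 2390 higher and 3592 lower, and the difference between conditions to 1872 higher and 1625 lower, from 1470 and 2025. Of 40 refits of the 4 identifiers, 39 kept the call, the exception being ENSMUSG00000031165 without replicate 3. Leaving out mitochondrially encoded genes and the coding-length comparison were not run, since identifiers had no names here. With 3 cultures, preferences of low-count genes were the least detectable.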
